A study of Mus musculus with 9 samples.

Results

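The genes described are 10 genes of apical polarity and mitotic spindle orientation, *Pard3*, *Pard6b*, *Pard6g*, *Prkci*, *Crb2*, *Llgl1*, *Numb*, *Numbl*, *Gpsm2* and *Tjp1*. They were chosen by name, with earlier results of these data known. Of the 10, 9 are listed among the 14670 genes of the deposited table. *Numbl* was not analysed here. Their mRNA was compared in embryonic cerebral cortex of the mouse at embryonic day 16.5 (E16.5) between 3 genotypes, *Fzd3* -/- mutant, *Celsr3* -/- mutant and control, with 3 libraries each. *Fzd3* encodes a Frizzled receptor and *Celsr3* an atypical cadherin, and both belong to the core genes of planar cell polarity. The labels give the controls as +/+, whereas according to the methods controls were littermates that could be wild-type or heterozygous, and the mutants were kept on a mixed background of C57Bl/6 and CD1. RNA was prepared with Trizol according to the labels and with an RNeasy kit according to the methods. The *Fzd3* mutant allele lacks an exon, and the table holds 1 value per gene for all exons together. The methods give tissue of 3 of each genotype for sequencing, and 3 or more animals for animal experiments in general, but neither they nor the labels state whether each library was a single embryo. The P values measure the spread between these libraries, which may be technical in part.

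Apical progenitors of the cortex are elongated epithelial cells that reach the ventricle with a small apical membrane and divide there. A complex of Par3, Par6 and atypical protein kinase C, together with Crumbs proteins, marks the apical domain, Lgl proteins are kept out of it by phosphorylation, and junctions with ZO-1 ring it. During mitosis LGN, the product of *Gpsm2*, holds the spindle poles towards the lateral cell cortex, and Numb, an endocytic adaptor, modulates Notch signalling and cadherin junctions. The question put to the data was whether mRNA of these genes differs when either planar polarity gene is mutated.

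The values were CPM (reads scaled by the authors to a common library total), which summed to between 990141 and 1012199 per library. In every library 100% of the values below 1000 steps were whole multiples of a single step within 0.1 step, and on that reading the libraries held between 39857305 and 69600589 reads. Read numbers are inferred in this way and are not given in the sources used here, and between 21 and 65 values per library lay within 20 steps, where a step is seen most directly. The 3 *Fzd3* mutant libraries held 42963627, 45848829 and 52249430 reads, the 3 *Celsr3* mutant libraries 60333846, 54974978 and 69600589, and the controls 52266343, 61637621 and 39857305. The lowest read number of any of the 9 genes, that of *Pard6b* in a *Fzd3* mutant library, was 288 on that reading, with a counting error of 5.89%. Libraries are named by the numbers in their labels, which run from 1 to 3 except in *Celsr3* mutants, where they are 1, 2 and 4. Differences were tested with limma on log2(CPM + 0.5) in a single fit of the 9 libraries, with Benjamini-Hochberg adjustment over all 14670 genes and a threshold of 0.05, and log2 differences are on that scale, which understates the change of low genes.

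As a check of the labels, mRNA of both mutated genes was compared. *Celsr3* was at 122, 139 and 118 CPM in *Celsr3* mutants, at 196, 243 and 214 CPM in controls and at 253, 213 and 255 CPM in *Fzd3* mutants. All *Celsr3* mutant libraries were below all other libraries, with a log2 difference from controls of -0.78 (s.e. 0.0910, limma adjusted P = 0.0018). *Fzd3* was at 46.5, 39.8 and 59.6 CPM in the libraries labelled *Fzd3* mutant, at 58.0, 67.7 and 46.9 CPM in controls and at 52.1, 61.1 and 54.8 CPM in *Celsr3* mutants. The ranges overlapped, and the log2 difference of -0.24 (s.e. 0.147, limma adjusted P = 0.24) passed the threshold only without *Fzd3* mutant library 3 (-0.40, limma adjusted P = 0.0457, over all settings tried 0.0457 to 0.633). The level of *Fzd3* mRNA therefore does not check the labels of these libraries, and "*Fzd3* mutant" is used as the labels give it. *Xist*, the RNA of the inactive X chromosome, was near 0 in *Celsr3* mutant library 2 and control library 3, at 0.744 and 0.803 CPM, and between 806 and 1147 CPM in the 7 others. Counts of genes past the threshold were therefore also computed without these 2 libraries, a choice made after the values were seen.

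In controls, levels were compared between genes per kb of annotated exon. *Llgl1* was the highest, at 32.2 ± 2.23 CPM per kb (s.d., n = 3), followed by *Prkci* at 14.5 ± 1.02. *Gpsm2* at 11.3 ± 0.731 and *Tjp1* at 10.8 ± 0.501 CPM per kb came next, and their control libraries overlapped (10.6 to 12.1 and 10.2 to 11.2), so that their order is not resolved. *Pard6g* followed at 8.96 ± 0.134 CPM per kb, and 4 genes were lower, *Numb* at 3.91 ± 0.0727, *Pard3* at 3.44 ± 0.299, *Pard6b* at 2.69 ± 0.281 and *Crb2* at 1.84 ± 0.230. *Numb* lay above *Pard3*, *Pard3* above *Pard6b* and *Pard6b* above *Crb2* in all control libraries. In unscaled CPM, between 30.4% (*Pard6b*) and 90.4% (*Llgl1*) of the listed genes were below these genes in controls, against a median of 24.3 CPM over all listed genes. The order differed in *Fzd3* mutants at the place of *Gpsm2*, which was at 7.84 ± 0.784 CPM per kb there, below *Tjp1* (9.72 ± 0.400) and *Pard6g* (9.52 ± 0.174) in all 3 libraries. In *Celsr3* mutants *Llgl1* was at 31.9 ± 0.657, *Prkci* at 13.8 ± 0.324, *Gpsm2* at 11.3 ± 0.860 and *Pard6g* at 9.62 ± 0.578 CPM per kb, in the order of the controls, with the mean of *Tjp1* between those of *Gpsm2* and *Pard6g*. The plot of levels per kb of exon shows these values for all 9 genes.

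**Figure D1:**
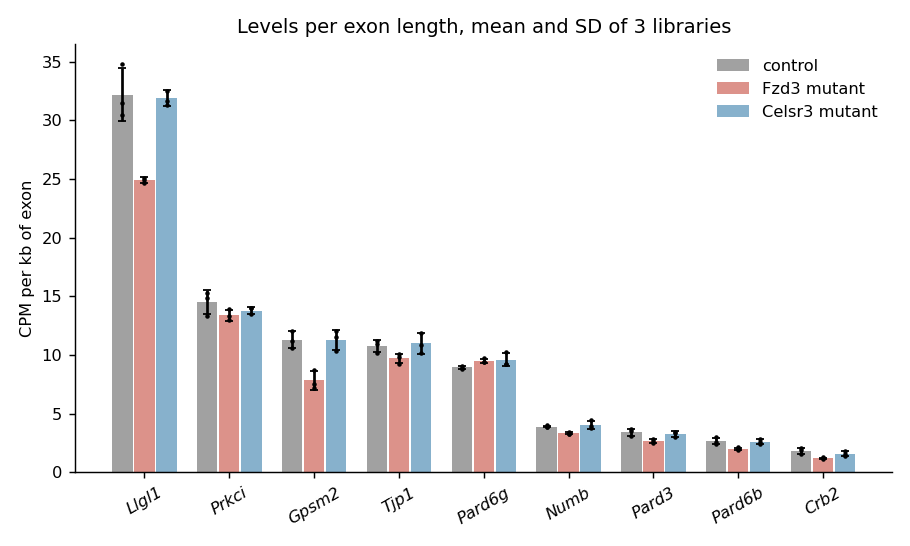
CPM per kb of annotated exon for the 9 genes in order of their control level, with bars for the mean, error bars for the s.d. and points for the 3 libraries of each genotype (grey control, red *Fzd3* mutant, blue *Celsr3* mutant). *Llgl1* stands at 32.2 in controls but 24.9 in *Fzd3* mutants, and *Gpsm2* at 11.3 and 7.84.

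Against controls, mRNA of 5 of the 9 genes fell in *Fzd3* mutants, *Gpsm2*, *Crb2*, *Llgl1*, *Pard3* and *Pard6b*, and 0 rose. *Crb2* fell by 34.0% and *Gpsm2* fell by 30.6% of the control mean, *Pard6b* fell by 25.0%, *Llgl1* fell by 22.8% and *Pard3* fell by 22.5%. The median log2 difference of the 9 genes was -0.36, against 0.00 over all genes. The share past the threshold in either direction was 55.6% of the 9 genes, against 29.8% of all genes (4366 of 14670), and the share that fell was the same 55.6%, against 14.8% (2167). In 7 of the 9 genes every *Fzd3* mutant library was below every control, which was the case in 22.2% of all genes. Since the genes were chosen with earlier results of these data known, these shares are a description and not a test. In *Celsr3* mutants 0 of the 9 genes passed the threshold with limma and 0 had an unadjusted P under 0.05, against 0.307% (45) and 5.45% (800) of all genes, with a median log2 difference of -0.01. In 0 of the 9 genes were all *Celsr3* mutant libraries below all controls, against 5.27% of all genes. Both mutants were compared with the same 3 controls, so the comparisons are not independent of each other. The line and litter of these controls are not given in the sources used here. Differences by genotype therefore cannot be told apart from differences by line, litter or exact stage. Without the 2 libraries low in *Xist*, 6 of the 9 genes passed the threshold in *Fzd3* mutants and 0 in *Celsr3* mutants, against 3904 and 54 of all genes. The cortex was sequenced in bulk, and fewer cells of a type and less RNA per cell cannot be told apart. Markers of the cells in which these genes act were also lower in the same libraries. The summed CPM of 10 apical progenitor markers was 1133, 1192 and 1083 in *Fzd3* mutants and 1480, 1568 and 1490 in controls, and that of 8 mitosis markers was 418, 446 and 513 against 797, 865 and 720. The part of these markers in the differences was not tested.

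**Figure D2:**
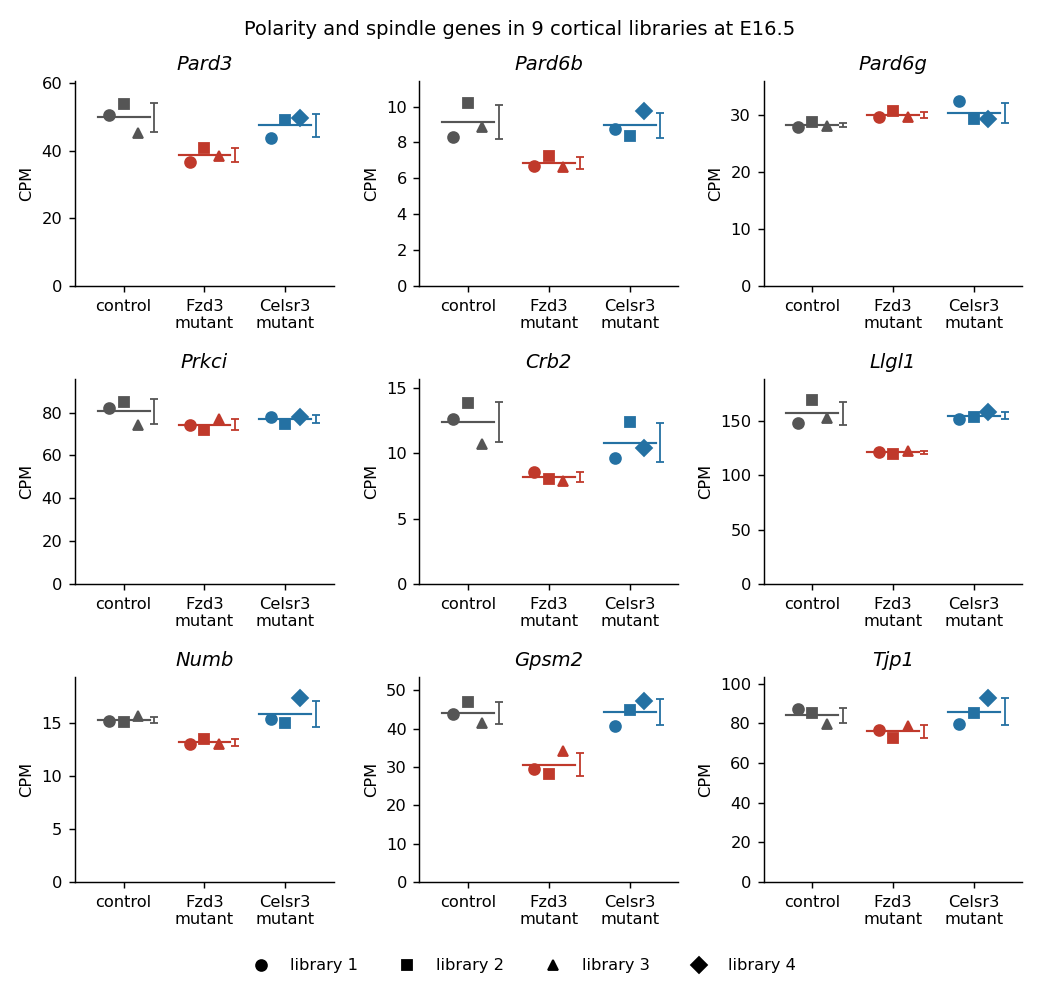
CPM of each of the 9 genes in each of the 9 libraries, 1 panel per gene with an axis from 0, where symbols give the library number, horizontal lines the mean and brackets the s.d. of the 3 libraries. In *Gpsm2* the *Fzd3* mutant libraries lie between 28.3 and 34.1 CPM, below all controls and all *Celsr3* mutants, which lie between 40.6 and 47.3 CPM.

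Promoter sequences are shown for the 3 genes with the lowest adjusted P in *Fzd3* mutants, *Llgl1*, *Gpsm2* and *Crb2*, since they fell together. RefSeq windows of 300 bases (GRCm38.p6, from 250 bases before the start of the gene to 50 after it) were searched on both strands for 4 motifs chosen after the values were seen. These were the cell cycle homology region (CHR, TTTGAA), the CCAAT box (CCAAT), the core of RBPJ sites, the DNA-binding partner of Notch (TGGGAA), and the GC box (GGGCGG). Capitals mark every match on either strand, and the 3 windows are written 5′ to 3′ along the strand of the gene, *Gpsm2* from chr3:108722250-108722549 (minus strand), *Llgl1* from chr11:60699450-60699749 (plus strand) and *Crb2* from chr2:37775999-37776298 (plus strand).
Gpsm2: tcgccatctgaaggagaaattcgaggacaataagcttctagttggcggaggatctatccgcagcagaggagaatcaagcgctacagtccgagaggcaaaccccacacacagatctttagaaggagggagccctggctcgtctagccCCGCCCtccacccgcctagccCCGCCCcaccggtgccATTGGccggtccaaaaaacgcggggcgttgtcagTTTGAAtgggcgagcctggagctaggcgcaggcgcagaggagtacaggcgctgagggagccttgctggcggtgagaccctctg
Llgl1: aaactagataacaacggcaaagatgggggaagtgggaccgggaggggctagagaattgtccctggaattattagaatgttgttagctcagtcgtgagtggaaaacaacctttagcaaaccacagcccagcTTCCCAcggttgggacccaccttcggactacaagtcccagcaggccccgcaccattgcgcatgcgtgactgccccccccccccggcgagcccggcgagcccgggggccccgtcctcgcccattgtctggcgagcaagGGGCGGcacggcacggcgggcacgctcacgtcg
Crb2: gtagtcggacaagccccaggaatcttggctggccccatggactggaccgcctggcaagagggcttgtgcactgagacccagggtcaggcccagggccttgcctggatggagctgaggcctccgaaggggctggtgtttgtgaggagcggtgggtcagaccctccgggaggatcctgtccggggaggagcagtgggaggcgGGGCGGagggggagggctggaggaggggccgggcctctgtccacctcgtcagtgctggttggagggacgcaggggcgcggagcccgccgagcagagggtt
The *Gpsm2* window holds 1 CHR on the strand of the gene, which begins at -33 from the start, with 1 CCAAT box and 2 GC boxes on the other strand. The *Llgl1* window holds 1 GC box and, on the other strand, 1 RBPJ core, and the *Crb2* window holds 1 GC box alone. Of 32851 mouse windows of this length, 17.9% hold TTTGAA, 37.4% CCAAT, 25.6% TGGGAA and 35.7% GGGCGG, so that each match is common. Windows of 8 of the genes were searched, 11 in all, and *Pard6g* was not searched. The CHR letters were in 1 other window, an alternative start of *Numb*, where they begin at -23. The *Pard6b* window holds 3 CCAAT boxes, 2 RBPJ cores and 4 GC boxes, and an RBPJ core there shares a base with a CCAAT box. These matches describe letters in a window and are not evidence of binding.

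Of the 9 genes, the spindle gene *Gpsm2* (XLOC_021205, chromosome 3 of GRCm38, 108678638 to 108722309, minus strand) was among the most reduced. It was at 29.5, 28.3 and 34.1 CPM in *Fzd3* mutants, at 40.6, 45.0 and 47.3 CPM in *Celsr3* mutants and at 43.9, 47.1 and 41.4 CPM in controls. The *Fzd3* mutant libraries were below all 6 others, which overlapped. Relative to controls *Gpsm2* fell by 30.6% in *Fzd3* mutants (log2 -0.52, 95% confidence interval -0.70 to -0.34, s.e. 0.0816, limma adjusted P = 0.000933), and this call was made in 18 of 18 other settings (limma adjusted P from 0.000447 to 0.00619). Of these 18 settings, 1 left out a minimum mean of 0.5 CPM that removed 0 genes, so it repeats the reported fit. Between *Celsr3* mutants and controls the log2 difference of *Gpsm2* was 0.00, with an interval from -0.17 to 0.18. An exon of *Clcc1* on the opposite strand shares 203 bases with exons of *Gpsm2*, 5.19% of their length, and strand use in counting is not given in the sources used here, so reads of that stretch cannot be told apart. *Clcc1* itself differed by -0.06 between *Fzd3* mutants and controls (limma adjusted P = 0.584).

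*Pard3*, the scaffold of the Par complex (XLOC_032057, chromosome 8 of GRCm38, 127063893 to 127612286, plus strand), was at 36.7, 40.9 and 38.5 CPM in *Fzd3* mutants, at 43.7, 49.1 and 49.7 CPM in *Celsr3* mutants and at 50.7, 53.8 and 45.2 CPM in controls. All *Fzd3* mutant libraries were the lowest, while *Celsr3* mutants overlapped controls. *Pard3* fell by 22.5% in *Fzd3* mutants (log2 -0.36, interval -0.53 to -0.20, s.e. 0.0746, limma adjusted P = 0.00436), in 18 of 18 other settings as well (limma adjusted P from 0.00188 to 0.0231), and the log2 difference in *Celsr3* mutants was -0.07 (interval -0.23 to 0.09). *Pard6b*, an adaptor that binds Cdc42 and atypical protein kinase C (XLOC_017904, chromosome 2, 168081004 to 168101203, plus strand), was at 6.69, 7.26 and 6.61 CPM in *Fzd3* mutants, at 8.77, 8.35 and 9.74 CPM in *Celsr3* mutants and at 8.32, 10.2 and 8.88 CPM in controls. Again the *Fzd3* mutant libraries were below all others and the others overlapped. *Pard6b* fell by 25.0% in *Fzd3* mutants (log2 -0.39, interval -0.61 to -0.16, s.e. 0.101, limma adjusted P = 0.0144). That call was lost without control library 2 (-0.31, limma adjusted P = 0.0626, over all settings 0.0139 to 0.0626).

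Its paralogue *Pard6g* (XLOC_014891, chromosome 18 of GRCm38, 80046890 to 80119639, plus strand) did not follow it. *Pard6g* was at 29.6, 30.6 and 29.6 CPM in *Fzd3* mutants, at 32.4, 29.2 and 29.2 CPM in *Celsr3* mutants and at 27.9, 28.7 and 28.1 CPM in controls. All libraries of both mutants were above all controls, and the mutants overlapped each other. The log2 differences were 0.09 in *Fzd3* mutants (interval -0.04 to 0.21, limma adjusted P = 0.288) and 0.10 in *Celsr3* mutants (interval -0.03 to 0.22, limma adjusted P = 0.984), and neither passed the threshold. *Pard6g* was the only one of the 9 genes with all mutant libraries above all controls, which was the case in 21.6% of all genes for *Fzd3* mutants and in 5.14% for *Celsr3* mutants. The share of *Pard6g* in the summed CPM per kb of *Pard6b* and *Pard6g* was 82.7, 82.0 and 82.9% in *Fzd3* mutants, 79.9, 79.1 and 76.4% in *Celsr3* mutants and 78.3, 75.3 and 77.3% in controls. The *Fzd3* mutant shares were above all others, and those of *Celsr3* mutants and controls overlapped. The mean share was 82.5 ± 0.479% in *Fzd3* mutants and 77.0 ± 1.57% in controls (s.d., n = 3 libraries), a difference of 5.55 percentage points (two-sided exact permutation test, P = 0.1, the smallest that 3 libraries against 3 allow). In *Celsr3* mutants it was 78.5 ± 1.85% (s.d., n = 3) (against controls, two-sided exact permutation test, P = 0.4), 4.05 points below *Fzd3* mutants (P = 0.1 by the same exact test).

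*Prkci*, which encodes the atypical protein kinase C of this complex (XLOC_019844, chromosome 3 of GRCm38, 30995747 to 31052959, plus strand), was at 74.1, 72.0 and 77.2 CPM in *Fzd3* mutants, at 78.0, 74.8 and 77.8 CPM in *Celsr3* mutants and at 82.3, 85.1 and 74.2 CPM in controls. Control library 3 lay within the range of *Fzd3* mutants and below all *Celsr3* mutants, and the other controls were above all mutant libraries. The log2 difference in *Fzd3* mutants was -0.11 (interval -0.23 to 0.01, limma adjusted P = 0.15). It passed the threshold without control library 3 (-0.17, limma adjusted P = 0.0272) and without the 2 libraries low in *Xist*, which include that library (-0.17, limma adjusted P = 0.0384), and limma adjusted P ranged from 0.0272 to 0.42 over the other settings. In *Celsr3* mutants the log2 difference of *Prkci* was -0.07 (limma adjusted P = 1).

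*Crb2*, an apical transmembrane protein of the Crumbs family (XLOC_016740, chromosome 2 of GRCm38, 37776249 to 37799103, plus strand), was at 8.57, 8.03 and 7.87 CPM in *Fzd3* mutants, at 9.60, 12.4 and 10.4 CPM in *Celsr3* mutants and at 12.6, 13.8 and 10.7 CPM in controls. *Celsr3* mutants lay between the others and overlapped controls, and the *Fzd3* mutant libraries were below all 6. *Crb2* fell by 34.0% in *Fzd3* mutants, the largest relative change among the 9 genes (log2 -0.56, interval -0.82 to -0.31, s.e. 0.115, limma adjusted P = 0.00406, and 0.00167 to 0.0197 over 18 other settings, all past the threshold). In *Celsr3* mutants the mean differed from that of controls by -12.5% (log2 -0.19, interval -0.44 to 0.07, limma adjusted P = 0.994). Exons of *Dennd1a* on the opposite strand share 113 bases with *Crb2*, 1.69% of its exon length, and *Dennd1a* rose in *Fzd3* mutants (log2 0.19, limma adjusted P = 0.0323, lost in 5 of 18 settings, each with a control or *Fzd3* mutant library left out). *Tjp1*, which encodes the junction scaffold ZO-1 (XLOC_030510, chromosome 7, 65296165 to 65527781, minus strand), was at 76.6, 72.5 and 78.7 CPM in *Fzd3* mutants, at 79.5, 85.1 and 93.0 CPM in *Celsr3* mutants and at 87.3, 85.3 and 79.7 CPM in controls. The *Fzd3* mutant libraries were below all others by a small margin, 78.7 against 79.5 CPM at the nearest. For *Tjp1* the log2 difference of *Fzd3* mutants from controls was -0.15 (interval -0.28 to -0.01, s.e. 0.0615, limma adjusted P = 0.0962) and passed the threshold in 0 of 18 other settings (limma adjusted P from 0.0611 to 0.269).

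*Llgl1*, a basolateral protein and substrate of atypical protein kinase C (XLOC_003975, chromosome 11 of GRCm38, 60699723 to 60714186, plus strand), was at 121, 120 and 122 CPM in *Fzd3* mutants, at 152, 154 and 158 CPM in *Celsr3* mutants and at 148, 169 and 153 CPM in controls. The 3 *Fzd3* mutant libraries were within 2 CPM of each other as rounded and far below the others, and *Celsr3* mutants lay inside the control range. *Llgl1* fell by 22.8% in *Fzd3* mutants (log2 -0.37, interval -0.48 to -0.26, s.e. 0.0486, limma adjusted P = 0.00032), with the lowest adjusted P of the 9 genes, and in 18 of 18 other settings (limma adjusted P from 0.000309 to 0.00236). The log2 difference in *Celsr3* mutants was -0.01, with an interval from -0.12 to 0.09. *Flii*, which shares 64 exon bases with *Llgl1* on the opposite strand (1.32% of its exon length), differed by -0.01 in *Fzd3* mutants (limma adjusted P = 0.931). *Numb*, the endocytic adaptor that is segregated at division in many tissues (XLOC_007256, chromosome 12, 83794034 to 83921934, minus strand), was at 13.0, 13.5 and 13.0 CPM in *Fzd3* mutants, at 15.4, 15.0 and 17.4 CPM in *Celsr3* mutants and at 15.2, 15.1 and 15.7 CPM in controls. All *Fzd3* mutant libraries were below all others, and *Celsr3* mutant library 4 was the highest. The mean in *Fzd3* mutants differed from that of controls by -13.9%, which did not pass the threshold (log2 -0.21, interval -0.37 to -0.05, s.e. 0.0737, limma adjusted P = 0.0524). *Numb* passed it with a minimum mean of 5 CPM (limma adjusted P = 0.0476) and without *Celsr3* mutant library 4 (limma adjusted P = 0.0411), within a range of 0.0411 to 0.13 over the other settings. Exons of *Gm46367* on the opposite strand share 166 bases with *Numb*, 4.24% of its exon length.

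The mutants were also compared directly, which tests whether a difference from controls is itself different between them. In *Fzd3* mutants 6 of the 9 genes were lower than in *Celsr3* mutants past the threshold (66.7%) and 0 were higher, against 29.6% of all genes in either direction (4346) and 14.3% lower (2099), with a median log2 difference of -0.29. In 7 of the 9 genes every *Fzd3* mutant library was below every *Celsr3* mutant library, against 22.6% of all genes. The log2 difference was -0.53 for *Gpsm2* (interval -0.71 to -0.35, limma adjusted P = 0.000994) and -0.36 for *Llgl1* (interval -0.46 to -0.25, limma adjusted P = 0.000459), and both passed in 18 of 18 other settings. *Crb2* differed by -0.38 (limma adjusted P = 0.0287), and 7 of 18 settings lost this call, among them without each of *Fzd3* mutant libraries 1, 2 and 3 (limma adjusted P = 0.0527, 0.0789 and 0.0668), without *Celsr3* mutant library 2 or 4 (0.116 and 0.0545) and without the 2 libraries low in *Xist* (0.0762). For *Pard6b* the difference was -0.36 (limma adjusted P = 0.0199), for *Pard3* -0.29 (0.0131) and for *Numb* -0.26 (0.0211). Without *Fzd3* mutant library 1 these 3 calls were lost (limma adjusted P = 0.0629, 0.0579 and 0.0645), as they were without *Celsr3* mutant library 4 (0.0788, 0.0526 and 0.0887), and *Pard3* was also lost without *Celsr3* mutant library 2 (0.0510). With the replicate number as a block, the calls of *Pard6b*, *Pard3*, *Numb* and *Crb2* were lost (limma adjusted P = 0.159, 0.0796, 0.176 and 0.116). In the fit without *Fzd3* mutant library 1, 2 of the 9 genes and 2971 of all genes were left past the threshold. In that without *Celsr3* mutant library 4 they were 2 and 3143, and without the 2 libraries low in *Xist* 5 and 3336. *Tjp1* differed by -0.17 (interval -0.31 to -0.04, limma adjusted P = 0.0528) and passed without control library 3 (0.0477) or *Celsr3* mutant library 1 (-0.23, limma adjusted P = 0.0208), within a range of 0.0208 to 0.34. *Pard6g* and *Prkci* differed by -0.01 and -0.05 (limma adjusted P = 0.882 and 0.568). The plot of differences with their intervals sets the 3 comparisons side by side.

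**Figure D3:**
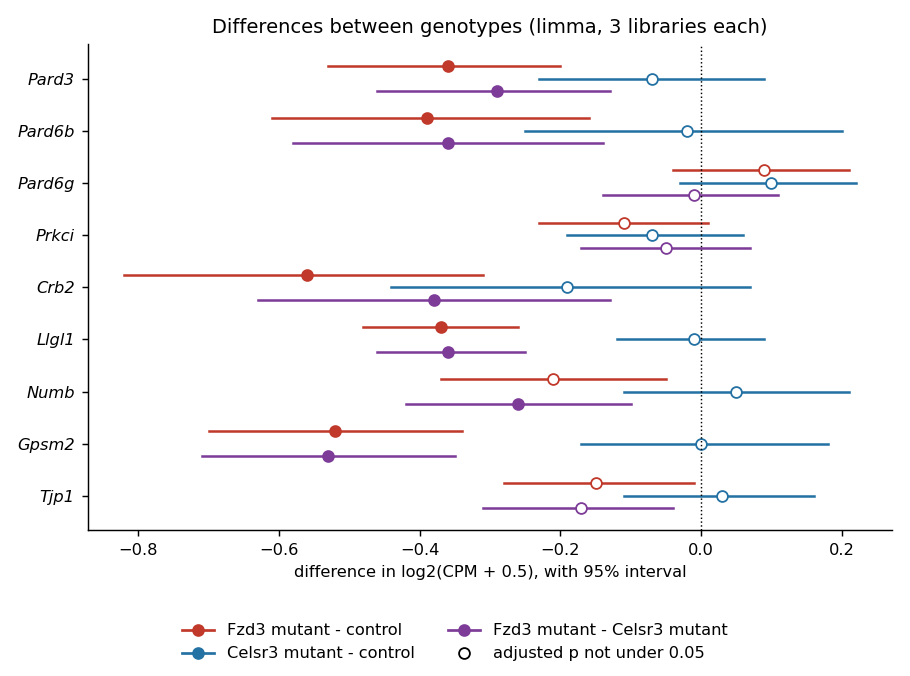
Difference in log2(CPM + 0.5) between genotypes for the 9 genes (x axis), with lines for the 95% confidence interval from limma and filled points for an adjusted P under 0.05; red is *Fzd3* mutant minus control, blue *Celsr3* mutant minus control and purple *Fzd3* mutant minus *Celsr3* mutant. The red and purple points of *Gpsm2* lie at -0.52 and -0.53, while all blue points are open and lie between -0.19 and 0.10.

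Other genes of the same processes were taken from a list of 89, of which 85 are listed. That list was also chosen with earlier results of these data known, so its shares are a description and not a test. In *Fzd3* mutants 24 of the 85 fell and 14 rose (44.7% past the threshold), against 14.8% and 15.0% of all genes, with a median log2 difference of -0.06. The largest group of changes was among genes of spindle orientation and the spindle poles, where 11 of 20 fell and 2 rose (65.0% past the threshold, against 29.8% of all genes), with a median of -0.17. *Nde1*, a partner of dynein and Lis1, was at 22.9, 26.9 and 27.9 CPM in *Fzd3* mutants, at 42.6, 42.7 and 46.8 CPM in *Celsr3* mutants and at 49.1, 47.1 and 41.6 CPM in controls (log2 -0.81 against controls, limma adjusted P = 8.23e-05). *Aspm*, a spindle pole protein, was at 27.8, 27.9 and 35.8, at 45.2, 51.8 and 53.9 and at 50.7, 54.8 and 46.6 CPM in the same order (log2 -0.73, limma adjusted P = 0.000493). As in *Gpsm2*, all *Fzd3* mutant libraries were below all others in both genes. Falls were also found for the spindle assembly factor *Tpx2* (log2 -0.73, limma adjusted P = 0.000222), its kinase partner *Aurka* (-0.64, 0.0008), the spindle pole gene *Wdr62* (-0.66, 0.00281), the kinesin *Kif20b* (-0.57, 0.00823) and the centriole gene *Cenpj* (-0.49, 0.00151). The 2 that rose were named after their values were seen, *Gnai1*, an inhibitory G protein subunit bound by LGN (0.36, limma adjusted P = 0.00594), and *Gpsm1*, the paralogue of *Gpsm2* (0.17, limma adjusted P = 0.0264, lost in 6 of 18 settings, among them without any 1 of the controls and without *Fzd3* mutant library 1 or 2). All 8 mitosis markers fell in the same libraries, with a median log2 difference of -0.76, and their part in these differences was not tested. Without the 2 libraries low in *Xist*, 37 of the 85 genes and 3904 of all genes passed in *Fzd3* mutants.

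Among 7 further genes of the Par complex, 1 fell and 3 rose (57.1%, against 29.8% of all genes). *Pard3b*, the paralogue of *Pard3*, was at 2.25, 3.30 and 3.51 CPM in *Fzd3* mutants, at 4.58, 5.50 and 5.50 CPM in *Celsr3* mutants and at 4.93, 5.45 and 4.39 CPM in controls (log2 -0.64, limma adjusted P = 0.0102). Like *Pard3*, it was lower in every *Fzd3* mutant library than in any other. The 3 that rose, named after their values were seen, were *Tiam1*, a Rac activator (0.33, limma adjusted P = 0.00321), *Prkcz*, the other atypical protein kinase C (0.23, 0.00384), and *Cdc42*, the GTPase bound by Par6 (0.16, 0.0178). The call of *Cdc42* was lost in 4 of 18 settings, among them without control library 2 and without *Fzd3* mutant library 1 or 2 (limma adjusted P from 0.0132 to 0.0648).

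In the other roles, the share past the threshold in *Fzd3* mutants was 5 of 10 for Crumbs complex genes and 4 of 8 for apical membrane genes, and it was 27.3% of basolateral genes, 38.9% of junction genes and 18.2% of Numb partners and fate determinants, against 29.8% of all genes. The shares of basolateral genes and of Numb partners were thus no higher than that of all genes. In these roles, genes outside those with the largest changes were named after their values were seen. Of 10 further Crumbs complex genes 2 fell, the scaffolds *Mpdz* (-0.33, limma adjusted P = 0.00237) and *Inadl*, now *Patj* (-0.22, limma adjusted P = 0.047, lost in 10 of 18 settings), and 3 rose, *Lin7a* (0.25, 0.0295, lost in 5), *Lin7c* (0.21, 0.00336) and *Amotl2* (0.41, 0.000789). Of 11 basolateral genes *Erbb2ip*, a scaffold now named *Erbin*, fell (-0.34, limma adjusted P = 0.00307) and 2 rose, *Dlg2* and, by 0.10, *Dlg3* (limma adjusted P = 0.0493, lost in 13 of 18 settings). *Dlg2*, a scaffold of the Dlg family that is also abundant at synapses, was at 196, 183 and 184 CPM in *Fzd3* mutants, at 106, 109 and 91.5 CPM in *Celsr3* mutants and at 97.5, 95.5 and 99.1 CPM in controls. Its *Fzd3* mutant libraries were far above all others (log2 0.94, limma adjusted P = 2.7e-06), in the opposite direction to *Llgl1*. Of 18 junction genes 5 fell, among them the cadherin and catenin genes *Ctnna1* (-0.38, limma adjusted P = 0.000174), *Ctnnb1* (-0.27, 0.000568) and *Cdh2* (-0.16, 0.0218, lost in 4 of 18 settings), and *Jam3* (-0.23, 0.0213, lost in 3), and 2 rose, *Cgn* and the nectin gene *Pvrl3* (0.24, 0.0191, lost in 3). *Cgn*, a partner of ZO-1 at tight junctions, was at 11.6, 13.1 and 12.5 CPM in *Fzd3* mutants, at 3.46, 6.39 and 3.27 CPM in *Celsr3* mutants and at 2.74, 6.16 and 7.25 CPM in controls. The *Fzd3* mutant libraries were the highest, and the other groups spread widely and overlapped (log2 1.22, limma adjusted P = 0.0106). Of 11 Numb partners and fate determinants 0 fell and 2 rose, the endocytic gene *Eps15* (0.24, limma adjusted P = 0.00497) and *Stau2* (0.19, 0.0326, lost in 3 of 18 settings), while *Numb* itself was lower without passing the threshold. Of 8 apical membrane genes 4 fell and 0 rose, *Prom1* (-0.49, limma adjusted P = 0.000866), *Ezr*, *Rdx* (-0.23, 0.00742) and *Msn* (-0.21, 0.0174, lost in 2 of 18 settings). *Ezr*, a linker of apical membrane and actin, was at 108, 111 and 118 CPM in *Fzd3* mutants, at 176, 191 and 186 CPM in *Celsr3* mutants and at 164, 160 and 140 CPM in controls. The 3 genotypes of *Ezr* did not overlap, and the fall in *Fzd3* mutants passed the threshold (log2 -0.46, limma adjusted P = 0.000385) while the difference in *Celsr3* mutants did not (0.26, limma adjusted P = 0.268).

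Against controls, 1 of the 85 genes passed the threshold in *Celsr3* mutants with limma (1.18%, against 0.307% of all genes), and 2 had an unadjusted P under 0.05, a lower share than the 5.45% of all genes. The gene past the threshold was *Amotl2*, an angiomotin family protein of the Crumbs complex, at 77.1, 82.3 and 80.4 CPM in *Celsr3* mutants, at 86.3, 81.1 and 78.2 CPM in *Fzd3* mutants and at 57.8, 67.5 and 59.2 CPM in controls. Both mutants were above all controls and overlapped each other. The rise was 0.38 on the log2 scale in *Celsr3* mutants (limma adjusted P = 0.0284) and 0.41 in *Fzd3* mutants (limma adjusted P = 0.000789). In *Celsr3* mutants the call was lost in 9 of 18 settings (limma adjusted P from 0.00483 to 0.343), among them without control library 1 or 3, without *Fzd3* mutant library 2, without any of the *Celsr3* mutant libraries and without the 2 libraries low in *Xist*, each of which left 0 of the 85 genes past the threshold. Between the mutants, 26 of the 85 genes were lower and 14 higher in *Fzd3* mutants (47.1% past the threshold), against 14.3% and 15.3% of all genes, with a median of -0.07, and 28 passed without the 2 libraries low in *Xist*, against 3336 of all genes.

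**Figure D4:**
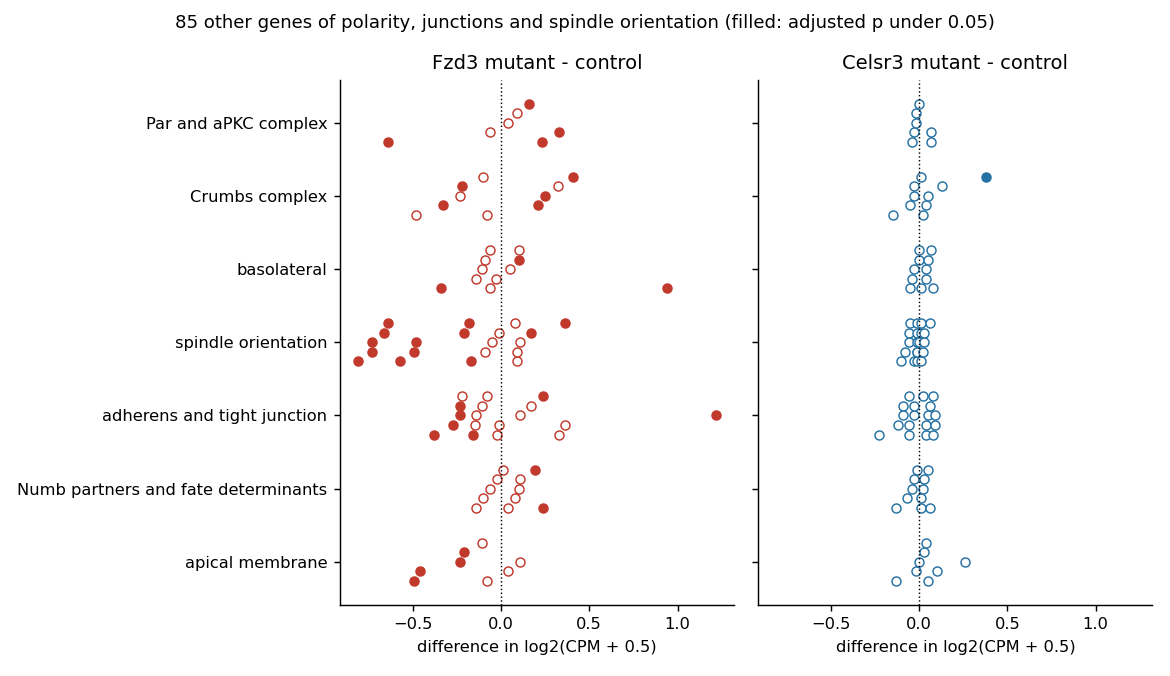
Difference in log2(CPM + 0.5) from controls (x axis) for the 85 other genes, in rows by role, in *Fzd3* mutants (left) and *Celsr3* mutants (right), where each point is a gene and filled points have a limma adjusted P under 0.05. The spindle orientation row holds 13 filled points in *Fzd3* mutants, 11 of them below 0, and *Celsr3* mutants have a single filled point, *Amotl2* at 0.38.

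Marker lists, also chosen with earlier results of these data known, describe the tissue in which the 9 genes were measured. In *Fzd3* mutants 8 of 10 apical progenitor markers fell and 0 rose (14.8% and 15.0% of all genes), among them *Pax6* (log2 -0.70, limma adjusted P = 0.00012), *Nes* (-0.67, 0.000325) and *Hes5* (-0.66, 0.00227), while *Fabp7*, the most abundant of the list per kb, differed by -0.18 (limma adjusted P = 0.181). Relative to the control mean, the summed level decreased by 24.9% in *Fzd3* mutants. Of 6 basal progenitor markers 5 fell, with *Neurog1* at -1.49, *Neurog2* at -0.86, *Btg2* at -0.76 and the most abundant per kb, *Eomes*, at -0.67 (limma adjusted P from 8.46e-05 to 0.00126), and their summed CPM was 383, 395 and 442 in *Fzd3* mutants, 554, 621 and 636 in *Celsr3* mutants and 574, 594 and 515 in controls. All 8 mitosis markers fell, with *Ccnb1* at -0.89, *Mki67* at -0.81, the most abundant per kb, *Top2a*, at -0.79 and *Kif11* at -0.74 (limma adjusted P from 8.78e-06 to 0.00174), and the summed level decreased by 42.2%. In *Celsr3* mutants the sums were 1357, 1408 and 1486 CPM for apical progenitor markers and 704, 793 and 849 CPM for mitosis markers. For mitosis these overlapped the controls, and for apical progenitors 1 library, at 1486 CPM, was within the control range. None of the markers in the 10 lists with listed genes passed the threshold between *Celsr3* mutants and controls with limma, and at an unadjusted P under 0.05 there was 1 marker each of apical progenitors, basal progenitors, mitosis, endothelial cells and microglia and 2 each of projection neurons, interneurons and meninges and pericytes. Together these were 11 of the 68 listed markers (16.2%), against 5.45% of all genes.

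Other cell types moved with genotype in part. Of 9 projection neuron markers 5 fell and 2 rose in *Fzd3* mutants, with *Sox5* at -0.52, *Bcl11b* at -0.46 and the most abundant per kb, *Neurod6*, at -0.22 (limma adjusted P from 0.000351 to 0.0044), and their sum was 6936, 6674 and 7000 CPM against 6831, 6864 and 6528 in controls and 6891, 6944 and 6616 in *Celsr3* mutants. These sums overlapped between genotypes. Of 4 oligodendrocyte precursor markers 3 rose, *Olig1*, the most abundant per kb (1.08, limma adjusted P = 0.00375), *Olig2* (0.98, 0.0309) and *Pdgfra* (0.73, 0.0399), with sums of 60.9, 55.1 and 31.5 CPM against 24.3, 21.6 and 32.6 in controls and 31.0, 21.6 and 26.7 in *Celsr3* mutants. The calls of *Olig2* and *Pdgfra* were lost without control library 1 or 2 and without *Fzd3* mutant library 1 or 2 (limma adjusted P from 0.00326 to 0.122 and from 0.00446 to 0.155 over the other settings). Of 8 endothelial markers 3 rose, *Flt1* (0.85), *Kdr* (0.58) and the most abundant per kb, *Cldn5* (0.53, limma adjusted P from 0.00054 to 0.00879), and the sums were 159, 149 and 139 CPM against 105, 106 and 110 in controls and 116, 101 and 151 in *Celsr3* mutants. Among those that did not pass, named after their values were seen, *Pecam1* differed by 0.10 and *Cdh5* by 0.05 between *Fzd3* mutants and controls. Of 5 microglia markers 2 rose, *Csf1r* (0.63, limma adjusted P = 0.00425) and *C1qa* (0.46, 0.0274), with sums of 50.8, 48.2 and 35.9 CPM against 29.9, 34.6 and 33.3 in controls and 33.5, 35.9 and 42.8 in *Celsr3* mutants, while the most abundant per kb, *P2ry12*, differed by 0.08. The call of *C1qa* was lost without control library 1 or 2 and without *Fzd3* mutant library 1 or 3 (limma adjusted P from 0.0233 to 0.0942), and *Aif1* was higher in *Fzd3* than in *Celsr3* mutants (0.56, limma adjusted P = 0.0231, lost in 3 of 17 settings). Interneuron markers gave 0 of 6 past the threshold and 0 at an unadjusted P under 0.05 between *Fzd3* mutants and controls with limma, with *Dlx1*, the most abundant per kb, at -0.06. Between *Celsr3* mutants and controls 0 passed and 2 had an unadjusted P under 0.05, *Gad2* and *Dlx1*, both lower in *Celsr3* mutants, with a median of -0.23 over the list. In the direct comparison 3 of them were higher in *Fzd3* than in *Celsr3* mutants, *Gad1* by 0.54, *Lhx6* by 0.29 and *Gad2* by 0.23 (limma adjusted P = 0.0146, 0.0465 and 0.0327, lost in 4, 10 and 7 of 18 settings).

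*Celsr3* mutant library 4, in which *Numb* and *Tjp1* were highest, also stood apart in markers of meninges and pericytes. Their sum was 234 CPM there, 67.7 and 62.9 CPM in the other *Celsr3* mutant libraries, 76.7, 76.8 and 63.1 CPM in *Fzd3* mutants and 60.1, 62.6 and 56.0 CPM in controls. With limma 0 of 6 of these markers passed the threshold against controls in either mutant, and 2 had an unadjusted P under 0.05 in each. Most of that sum came from extracellular matrix genes, named after their values were seen, *Col3a1* at 87.6 CPM in that library and at most 6.86 CPM in the others, *Col1a2* at 49.4 and at most 3.78, *Col1a1* at 21.5 and at most 8.45, and *Dcn* at 13.0 and at most 2.89. The most abundant per kb, *Rgs5*, was at 41.7 CPM there and between 30.4 and 38.4 CPM in the others. Red blood cell markers summed to 2285, 2443 and 1569 CPM in *Fzd3* mutants, 2416, 1584 and 2536 CPM in *Celsr3* mutants and 1765, 1917 and 2039 CPM in controls, which overlapped. Of the 6 listed, *Hbb-y* fell in *Fzd3* mutants (-1.05, limma adjusted P = 0.0331, and 0.00705 to 0.127 over the other settings, past the threshold in 12 of 17 and lost without control library 1 or 2 or any 1 of the *Fzd3* mutant libraries), and *Hba-a1*, the most abundant per kb, differed by 0.17. Of 5 choroid plexus markers 0 are listed. The part of these cell types in the values of the 9 genes was not tested.

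**Figure D5:**
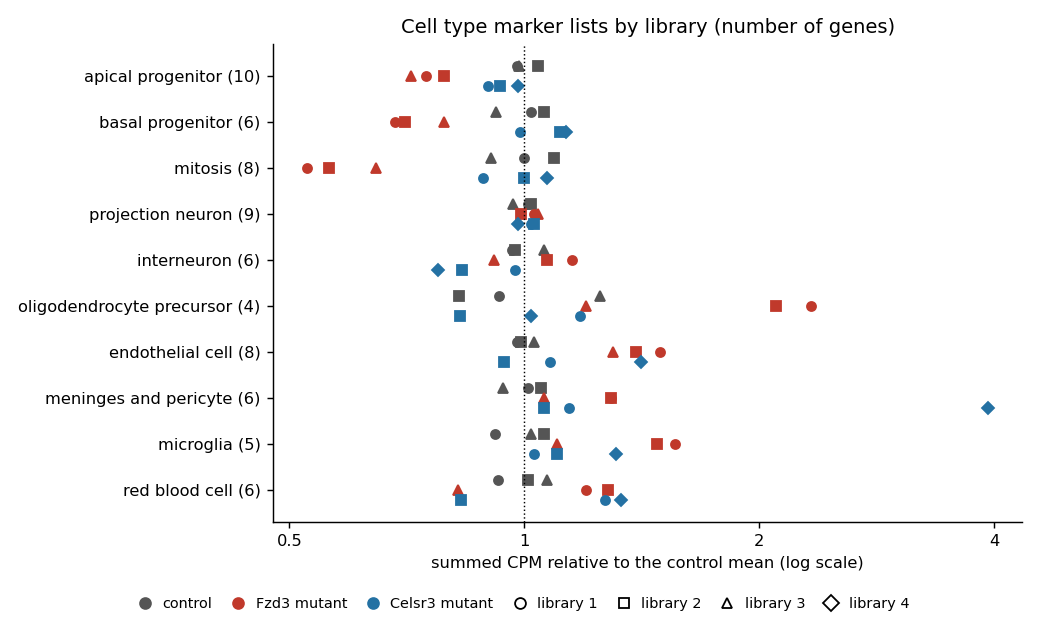
Summed CPM of each marker list in each library relative to the control mean (x axis, log scale), with the number of listed genes in parentheses, colours for genotype and symbols for library number. Mitosis markers lie between 0.527 and 0.646 in *Fzd3* mutants, and *Celsr3* mutant library 4 stands apart in markers of meninges and pericytes.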

How the data were processed

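The authors deposited 1 table of CPM values for 14670 genes in 9 libraries of mouse cortex. Libraries were prepared and sequenced by Beckman Coulter, with a Tuxedo type of expression analysis. The submitters' processing notes name FastQC, TopHat, TopHat2, Bowtie, Cufflinks 2.1.1, edgeR 2.12 and the builds GRCm38 and GRCh37, without their roles. The counter, the annotation and strand use are not given in the sources used here. The lowest mean of a gene over the libraries was 0.540 CPM. The number of columns not used was 0.

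Genotype and number of each library came from the sample labels. limma 3.58.1 in R 4.3.3 was applied to log2(CPM + 0.5), by lmFit with genotype as the only term, contrasts between genotypes, and eBayes with its trend option, and a minimum mean of 0.5 CPM removed 0 genes. The fit was tested on simulated data. The share of *Pard6g*, its exact permutation test (scipy 1.17.1) and all summaries used numpy 2.4.6 and pandas 2.3.3 under Python 3.11.15. Positions and exon lengths (the union of annotated exons) came from GENCODE M21 for GRCm38, which need not be the annotation the authors used, and promoter windows from RefSeq (GRCm38.p6).

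The 10 genes and all lists were chosen with earlier results of these data known. The text names these genes, the 2 mutated genes, up to 10 genes of the pathway list with the largest log2 difference past the threshold in each comparison, and from each marker list the most abundant gene (in CPM per kb of exon in controls) and up to 3 with the largest difference past the threshold. Genes named beyond this rule are said to be chosen after their values were seen, as are *Clcc1*, *Dennd1a*, *Flii* and *Gm46367*, named for their position, and *Xist*. Alternatives covered the pseudocount, the minimum mean, the scaling, fits of only the 2 genotypes compared, the replicate number as a block, and leaving out each library or, chosen after the values were seen, the 2 low in *Xist*. The motifs were also chosen after the values were seen. *Numbl* and the qRT-PCR of the study were not analysed here. Values of some genes that the rule or a small count would name are not reported here.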

Additional observations from a re-analysis of the deposited data

Results flagged for a closer look

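In the direct limma test between the mutants, 29.6% of all genes passed the threshold (4346 of 14670), and so did 6 of the 9 genes and 40 of the 85 pathway genes. For these genes the difference from controls, which both mutants share, itself differed between *Fzd3* and *Celsr3* mutants. Among the 9 genes the log2 differences of *Fzd3* from *Celsr3* mutants were -0.29 for *Pard3*, -0.36 for *Pard6b*, -0.38 for *Crb2*, -0.36 for *Llgl1*, -0.26 for *Numb* and -0.53 for *Gpsm2*. The calls of *Gpsm2* and *Llgl1* were made in 18 of 18 other settings, whereas that of *Crb2* was lost in 7, that of *Pard3* in 4 and those of *Pard6b* and *Numb* in 3 each. Pathway genes were named for the size of their differences past the threshold, this comparison included, so their number here was set by that choice. Their log2 differences were 1.46 for *Cgn*, 0.88 for *Dlg2*, -0.76 for *Nde1*, -0.65 for *Tpx2*, -0.72 for *Aspm*, -0.60 for *Wdr62*, -0.61 for *Aurka*, -0.71 for *Pard3b*, -0.59 for *Kif20b*, -0.50 for *Cenpj* and -0.71 for *Ezr*. *Amotl2*, named for its difference from controls, was at 0.03 (limma adjusted P = 0.727).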

How the results depend on the processing

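Over 18 other settings, 462 of 486 differences of the 9 genes kept their side of the threshold, 18 calls were lost, 6 were gained and 0 called differences changed sign. The setting without a minimum mean repeats the reported fit, since that minimum removed 0 genes, so its values could not differ. In *Fzd3* mutants against controls, 4 to 6 of the 9 genes passed (5 as reported), 2958 to 4366 of all genes and 27 to 39 of the pathway list. In *Celsr3* mutants 0 of the 9 genes passed in any setting with limma, and 0 had an unadjusted P under 0.05 as reported.

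The replicate numbers do not pair the libraries, since deviations from the genotype means correlated by -0.199 to 0.192 in 7 pairs with the same number and by -0.163 to 0.188 in 20 other pairs. With the number as a replicate block, 3629 genes passed in *Fzd3* mutants and 29 in *Celsr3* mutants, and 2101 between the mutants, with 2 of the 9 genes (*Gpsm2* and *Llgl1*) and 20 of the pathway list. *Celsr3* in its own mutant then missed the threshold (-0.71, limma adjusted P = 0.0699, over all settings 0.00136 to 0.0699), as did *Wdr62* and *Kif20b* between the mutants (limma adjusted P = 0.0607 and 0.0663, over all settings from 0.00308 and 0.00291 up to these).

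In *Celsr3* mutants the pathway count of 1 became 0 with the block, with only the 2 genotypes compared and without the 2 libraries low in *Xist*, and was 0 to 1 with a library left out. Between the mutants 2 to 7 of the 9 genes and 2971 to 4471 of all genes passed with a library left out. The cause of these changes was not tested. Without exon lengths the share of *Pard6g* differed by 5.81 points between *Fzd3* mutants and controls, 1.57 between *Celsr3* mutants and controls and 4.24 between the mutants. Per kb of exon, as reported, and with a library left out, the differences ranged from 4.69 to 6.23, from 0.644 to 2.55 and from 3.01 to 4.78 points. That between *Celsr3* mutants and controls was 0.644 without control library 2, 0.771 without *Celsr3* mutant library 1 and 2.55 without *Celsr3* mutant library 4. Tests on whole reads with edgeR and DESeq2 were not run, and a share of *Numbl* was not computed. At the lowest read number of the 9 genes, 288, counting error was 5.89%.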
